A study of Mus musculus with 9 samples.

Results

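Genes of transfer RNA metabolism and aminoacylation were followed in RNA from mouse small intestine during acute graft-versus-host disease, a condition in which immune cells of a transplant injure the recipient. The rule for choosing the genes uses annotation alone, although the topic was picked with earlier results of these data known. The genes are the rows whose Gene Ontology biological process field holds the term tRNA metabolic process and does not hold ribosome biogenesis, which gave 130 of the 48708 genes in the table. Of the 138 genes with the tRNA term, 8 also carried ribosome biogenesis and were left out, among them Pop4 and Pop5 of ribonuclease P, Exosc2 and Exosc3 of the exosome, and Fbl. By role, 21 of the 130 encode cytosolic aminoacyl-tRNA synthetases and 21 encode mitochondrial synthetases or their partner enzymes. Another 5 encode editing enzymes and enzymes of selenocysteine tRNA, 55 encode enzymes or cofactors of tRNA modification, and 22 encode tRNA processing and ligation factors. The remaining 6 carry the term without belonging to these roles.

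There were 3 groups of 3 libraries, all from C57BL/6 mice at postnatal week 8. The Ripk3-KO group was labelled RIPK3-/-, the VilCre-Ripk3fl/fl group carried floxed Ripk3 alleles with a Villin-cre transgene, whose promoter is active in the intestinal epithelium, and the WT group was wild type. The RIPK3 kinase drives necroptosis, a regulated and lytic form of cell death, and the study screened for signalling that depends on it. The labels do not say whether a genotype also holds for the transplanted cells, whether the libraries of a group come from separate animals, or which part of the small intestine was taken, and the p-values therefore measure only the spread between these libraries. Ripk3 itself averaged 3.61 ± 0.242 CPM (counts scaled to library size) in Ripk3-KO, 6.45 ± 0.911 CPM in VilCre-Ripk3fl/fl and 113 ± 0.979 CPM in WT (SD, n = 3 each), in the order that the labels give.

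Aminoacyl-tRNA synthetases join each amino acid to its tRNAs, and the charged tRNAs carry the amino acids to the ribosome. Mammalian cells keep one set of these enzymes in the cytosol, part of it held together in a multi-synthetase complex. A largely separate set, also encoded in the nucleus, works in mitochondria. Gars and Kars, the glycine and lysine genes, are counted here as cytosolic. No separate mitochondrial gene for either amino acid is among the genes followed. Before charging, tRNA transcripts are trimmed by ribonuclease P and tRNase Z, some are spliced and ligated, and many bases are chemically modified, which affects tRNA stability and decoding. Uncharged tRNA activates the kinase GCN2, which raises translation of the transcription factor ATF4. ATF4 in turn activates genes of amino acid supply, and several cytosolic synthetase genes are among its known targets.

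The core of the amino acid response element, at which ATF4 acts, is written here as TGATGNAA. It was searched for on both strands in windows from 250 bases before to 50 bases after each RefSeq gene start (build GRCm38.p6). Of the 130 genes, 128 matched RefSeq by symbol or identifier and 104 had such a window. The core was found in 5 of the 104 genes, and those 5 were among the 14 cytosolic synthetase genes with a window (35.7%). Across all 27025 genes with a window, 4.51% held it. It was found in 0 of the 17 mitochondrial synthetase genes and 0 of the 49 modification genes with a window. A match describes letters in a window and is not evidence that a factor binds there. All 5 genes were lower than WT in both deletions, as were 20 of the 21 cytosolic synthetases in Ripk3-KO and 18 of 21 in VilCre-Ripk3fl/fl. Of all genes tested, 28.1% and 28.4% were lower. The 5 stretches are shown because their genes are the cytosolic synthetases that carry the core. They are given 5′ to 3′ on the strand of the gene with the core in capitals, and TTGCATCA and TTTCATCA are the core read on the other strand.
Aars, alanine enzyme, plus strand, chr8:111033690-111033871: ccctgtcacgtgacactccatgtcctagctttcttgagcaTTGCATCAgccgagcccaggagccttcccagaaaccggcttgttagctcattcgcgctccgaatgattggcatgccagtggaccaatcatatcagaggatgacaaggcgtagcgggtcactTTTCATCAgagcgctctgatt
Gars, glycine enzyme, plus strand, chr6:55037931-55038018: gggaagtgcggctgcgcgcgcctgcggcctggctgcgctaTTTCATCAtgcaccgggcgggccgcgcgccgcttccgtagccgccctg
Iars, isoleucine enzyme, plus strand, chr13:49682097-49682159: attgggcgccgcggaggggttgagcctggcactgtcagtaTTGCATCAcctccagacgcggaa
Tars, threonine enzyme, minus strand, chr15:11399629-11399713: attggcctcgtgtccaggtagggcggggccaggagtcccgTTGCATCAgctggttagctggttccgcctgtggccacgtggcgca
Yars, tyrosine enzyme, plus strand, chr4:129189866-129189932: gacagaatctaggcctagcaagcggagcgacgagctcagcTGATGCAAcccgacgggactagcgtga
The core of Aars occurred at 2 places in the stretch, the first beginning 112 bases before the start (−112). In Gars and Tars it began 30 and 15 bases before the start (−30 and −15), and in Yars and Iars 3 and 7 bases after it. None of these 6 matches overlapped a match of the other motifs searched. The E-box CACGTG, to which Myc family factors bind, was found in 14.4% of the genes with a window and in 8.09% of all genes. The interferon-gamma activated sequence TTCNNNGAA stood in 10.6% and 9.55%, and the interferon response core GAAANNGAA in 12.5% and 9.76%. Of the 14 cytosolic synthetase genes with a window, 4 held the E-box (28.6%), namely Aars, Farsb, Iars and Tars. Among the same genes, the interferon-gamma activated sequence stood in 2 (14.3%) and the interferon response core in 1 (7.14%).

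Total counts ranged from 25375499 to 41038990 per library, and the 130 genes took 0.422 to 0.445% of them in Ripk3-KO, between 0.409 and 0.422% in VilCre-Ripk3fl/fl, and between 0.559 and 0.569% in WT. Other tissue and cell types differed between the same groups. The 10 markers of exocrine pancreas summed to 87.1 to 97.5 CPM in Ripk3-KO, between 17832 and 18966 CPM in VilCre-Ripk3fl/fl and between 2398 and 2421 CPM in WT, and all 10 were lower in Ripk3-KO and all 10 higher in VilCre-Ripk3fl/fl than in WT. The 8 adipocyte markers summed to 1474 to 1605, 162 to 178 and 89.6 to 95.8 CPM in the same order of groups, and all 8 were called higher in each deletion. The 6 smooth muscle markers summed to 2837 to 3180 CPM in Ripk3-KO and 2478 to 2636 CPM in VilCre-Ripk3fl/fl, against 1255 to 1307 CPM in WT, and all 6 were called higher in each deletion. The 7 Paneth cell markers summed to 1046 to 1202 CPM in Ripk3-KO and 3103 to 3422 CPM in VilCre-Ripk3fl/fl, against 667 to 691 CPM in WT, with 6 of 7 called higher and Mmp7 called lower in each deletion. Of the 8 enterocyte markers, 7 were called higher and 1, Alpi, lower in Ripk3-KO, and 6 were called higher and 0 lower in VilCre-Ripk3fl/fl. All 5 neutrophil markers and 5 of 7 T cell markers were called lower in each deletion, with 0 higher. Of the 8 markers of stem and proliferating cells, 5 were called lower in each deletion, while Olfm4 was called higher in both and Lgr5 in VilCre-Ripk3fl/fl. The part of these differences in the results below was not tested, and in bulk tissue fewer cells of a type and less RNA per cell cannot be told apart.

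Most of the tRNA genes that changed were lower in the deletions than in WT. With 129 of the 130 genes passing the filter on low counts (the exception, Gm20661, stood between 0.0763 and 0.456 CPM in every library), 63 fell and 13 rose in Ripk3-KO against WT, and 53 were not called at an adjusted p under 0.05 (edgeR). Of all 16539 genes tested in that comparison, 55.4% were called, with 28.1% lower and 27.3% higher. In VilCre-Ripk3fl/fl against WT, 59 of the tRNA genes fell, 13 rose and 57 were not called, where 55.6% of all genes tested were called, 28.4% lower and 27.2% higher. The libraries of a deletion and of WT did not overlap for 78 of the 129 genes in Ripk3-KO and for 85 in VilCre-Ripk3fl/fl, beside 63.5% and 61.4% of all genes tested. The median log2 fold change of the 129 genes was -0.25 in Ripk3-KO and -0.23 in the VilCre-Ripk3fl/fl group, against medians of 0.01 and 0.02 over all genes. Fold changes were small, with 4 genes lower and 1 higher by at least 2-fold in Ripk3-KO. Both comparisons use the same WT libraries, so they are not independent of each other.

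**Figure D1:**
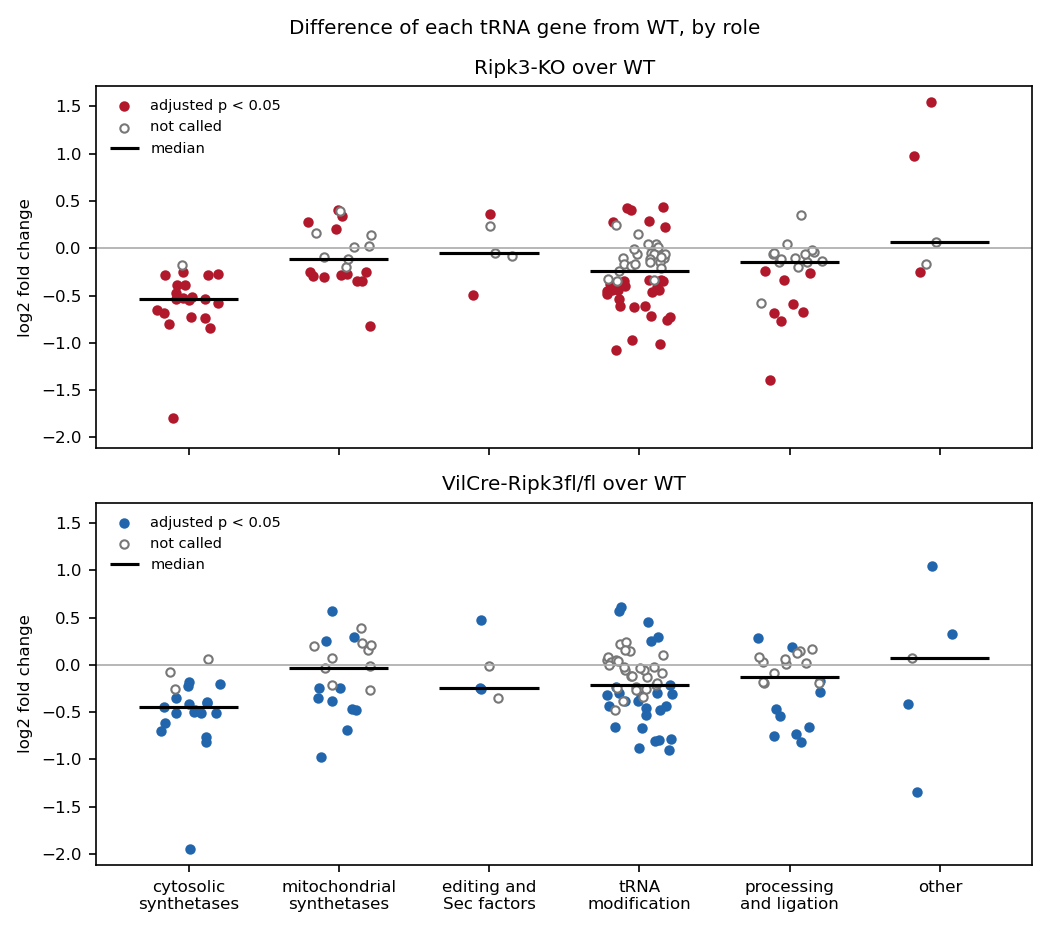
Log2 fold change (vertical axis) of each of the 129 tested tRNA genes in Ripk3-KO over WT (upper panel) and VilCre-Ripk3fl/fl over WT (lower panel), by role. Filled points have an adjusted p under 0.05, open points were not called and black bars are medians. The cytosolic synthetases have the lowest medians, -0.53 and -0.45, and their lowest point in each panel is Wars.

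Nearly all cytosolic synthetases fell. In Ripk3-KO against WT, 20 of the 21 fell and 0 rose, where 28.1% of all genes tested were lower and 27.3% higher. The median log2 fold change was -0.53, and the exception was Tarsl2, an enzyme that also charges threonine tRNA. In VilCre-Ripk3fl/fl against WT, 18 fell and 0 rose, where 28.4% of all genes tested were lower and 27.2% higher. The median was -0.45, and Farsb, Qars and Tarsl2 were not called. Their summed level was 1768, 1771 and 1777 CPM in the Ripk3-KO libraries, 1888, 1907 and 1937 CPM in VilCre-Ripk3fl/fl and 2750, 2772 and 2775 CPM in WT, sorted by size. The 3 groups did not overlap, and the libraries of a group lay close together. Without Wars, the sums still ranged from 1652 to 1664 CPM in Ripk3-KO, from 1785 to 1833 CPM in VilCre-Ripk3fl/fl and from 2354 to 2376 CPM in WT. The shifts in markers of smooth muscle, adipocytes, Paneth cells, enterocytes, neutrophils and T cells given above ran alongside this fall in both deletions. Markers of stem and proliferating cells were also lower in sum, with the exceptions given above. They summed to 533 to 558 CPM in Ripk3-KO and 499 to 547 CPM in VilCre-Ripk3fl/fl, against 705 to 728 CPM in WT. The part of all these shifts in the fall was not tested.

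Wars showed the largest difference from WT of the 129 genes in both comparisons. It encodes the cytosolic tryptophan enzyme, which in human cells is strongly induced by interferon-gamma, and lies on the minus strand at chr12:108860030-108894174 (mm10). Its level was 113, 116 and 115 CPM in the Ripk3-KO libraries, 104, 104 and 103 CPM in VilCre-Ripk3fl/fl and 396, 399 and 402 CPM in WT. Every WT library was far above every library of either deletion, and no 2 groups overlapped. The level was 3.48 times lower in Ripk3-KO (log2 fold change -1.80, SE 0.04, adjusted p = 1.83e-21) and 3.84 times lower in VilCre-Ripk3fl/fl (-1.94, SE 0.05, adjusted p = 5.82e-22). Per unit of length, Wars was the second most abundant of the 130 genes in WT, at 285 TPM (a share of all transcripts, corrected for length) beside 337 TPM of Nars, the asparagine enzyme. It ranked 8 in Ripk3-KO at 78.8 TPM and 11 in VilCre-Ripk3fl/fl at 61.3 TPM. Wars supplied 6.33 to 6.57% of the summed cytosolic synthetase CPM (not corrected for length) in Ripk3-KO and 5.38 to 5.47% in VilCre-Ripk3fl/fl, against 14.4 to 14.5% in WT.

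**Figure D2:**
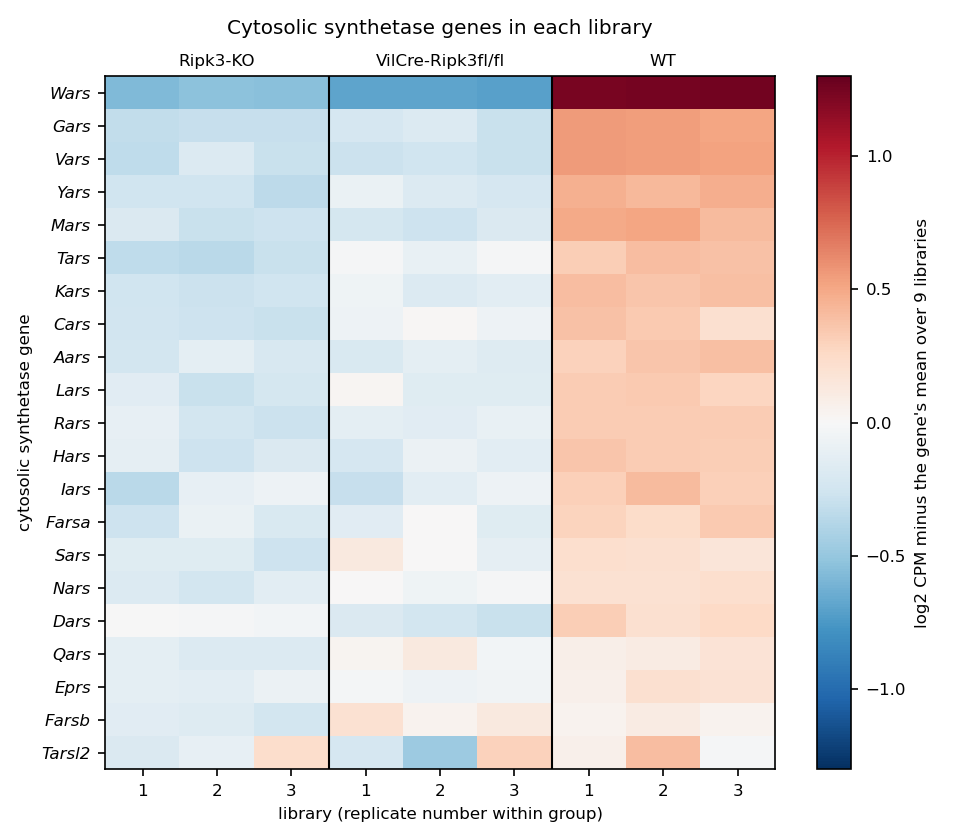
Level of the 21 cytosolic synthetase genes in each of the 9 libraries, as log2 CPM minus the mean of the gene over all libraries, with genes sorted by their log2 fold change in Ripk3-KO over WT. Red is above the mean of the gene and blue below it; the WT columns are red for the upper rows, and the lowest row, Tarsl2, varies among the libraries of each group.

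Gars and Vars, the glycine and valine enzymes, followed Wars. Gars stood at 97.9, 99.2 and 99.2 CPM in Ripk3-KO, 105, 108 and 100.1 CPM in VilCre-Ripk3fl/fl and 179, 178 and 175 CPM in WT. Vars stood at 73.0, 81.1 and 74.7 CPM in Ripk3-KO, 75.5, 76.3 and 75 CPM in VilCre-Ripk3fl/fl and 135, 133 and 131 CPM in WT. In both genes the lowest WT library lay far above the highest library of either deletion. The log2 fold change of Gars was -0.84 in Ripk3-KO and -0.76 in the VilCre-Ripk3fl/fl group, and that of Vars -0.80 and -0.81, each with an SE of 0.05 and an adjusted p of at most 1.16e-12. The genes whose promoters carry the amino acid response core lay within the range of the rest. Besides Gars, Yars had log2 fold changes of -0.74 in Ripk3-KO and -0.61 in the VilCre-Ripk3fl/fl group, Tars -0.69 and -0.41, Aars -0.54 and -0.51, and Iars -0.52 and -0.51, all called. These 4 are named for their promoters.

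Falls were found in both structural classes, and inside and outside the multi-synthetase complex. Class I and class II synthetases differ in the fold of their catalytic domain. Of the cytosolic class I genes, 9 of 9 fell in Ripk3-KO and 8 of 9 in VilCre-Ripk3fl/fl. Of the class II genes, 10 of 11 and 9 of 11 fell. Of the 8 genes for enzymes of the multi-synthetase complex, 8 fell in Ripk3-KO and 7 in the VilCre-Ripk3fl/fl group, and of the 13 others 12 and 11 fell. Beside these counts, 28.1% and 28.4% of all genes tested were called lower than WT, in the same order of deletions. The differences between these classes were not tested. Eprs, which encodes the joint glutamate and proline enzyme of the complex, was among the smaller changes. It averaged 117 ± 2.73 CPM in Ripk3-KO, 123 ± 1.72 CPM in VilCre-Ripk3fl/fl and 141 ± 7.14 CPM in WT (SD, n = 3 each). Its log2 fold change was -0.27 in Ripk3-KO (SE 0.05, adjusted p = 4.72e-05) and -0.20 in VilCre-Ripk3fl/fl (SE 0.05, adjusted p = 0.00143).

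Mitochondrial synthetases were called in both directions. Of 21 genes, 9 fell and 4 rose in Ripk3-KO against WT (42.9% lower and 19.0% higher, beside 28.1% and 27.3% of all genes tested). In VilCre-Ripk3fl/fl, 8 fell and 3 rose (38.1% lower and 14.3% higher, beside 28.4% and 27.2%), and the medians were -0.12 in Ripk3-KO and -0.04 in the VilCre-Ripk3fl/fl group. Iars2, the mitochondrial isoleucine enzyme (chr1:185284726-185329396, minus strand, mm10), fell the most. Its level was 60.3, 61.0 and 65.3 CPM in Ripk3-KO, 57.5, 58.0 and 52.6 CPM in VilCre-Ripk3fl/fl and 111, 110 and 109 CPM in WT, so that the WT libraries stood far above the others. The log2 fold change was -0.82 in Ripk3-KO (SE 0.06, adjusted p = 2.38e-12) and -0.97 in VilCre-Ripk3fl/fl (SE 0.06, adjusted p = 1.52e-13). Iars2 shares 2034 bases with Rab3gap2 on the opposite strand, and whether counting used strand is not given in the sources used here. Nars2, the asparagine enzyme of mitochondria, also fell, to 10.1 ± 0.657 CPM in Ripk3-KO and 8.04 ± 0.792 CPM in VilCre-Ripk3fl/fl, against 12.9 ± 1.27 CPM in WT. Its log2 fold change in Ripk3-KO was -0.35 (adjusted p = 0.0165) and was not called without 1 of Ripk3-KO replicate 1, WT replicate 1 or WT replicate 3 (adjusted p = 0.0615, 0.086 and 0.0575).

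Several mitochondrial enzymes rose. Cars2, the cysteine enzyme, had 25, 23.9 and 22.5 CPM in Ripk3-KO, 28.2, 25.4 and 26.2 CPM in VilCre-Ripk3fl/fl and 17.9, 17.7 and 18.3 CPM in WT. All libraries of both deletions lay above all WT libraries. The log2 fold change was 0.40 in Ripk3-KO (SE 0.08, adjusted p = 0.000169) and 0.56 in VilCre-Ripk3fl/fl (SE 0.08, adjusted p = 2.67e-06). Cars2 shares 984 bases with Carkd on the opposite strand, a gene with 11303 counts over all libraries beside 6520 for Cars2. Rars2, the arginine enzyme, rose by 0.28 and 0.25 on the log2 scale. Gatb, a subunit of the amidotransferase that makes glutamine tRNA in mitochondria, rose by 0.34 and 0.29, while Gatc of the same enzyme fell by 0.30 and 0.35. In TPM, Rars2 averaged 22.1 in Ripk3-KO, 18.5 in VilCre-Ripk3fl/fl and 18.9 in WT, and Gatb 9.30, 7.71 and 7.62. In that measure the VilCre-Ripk3fl/fl means of both genes thus stood close to WT. The call of Gatb was lost without Ripk3-KO replicate 2 in Ripk3-KO (adjusted p = 0.0512) and without WT replicate 2 in VilCre-Ripk3fl/fl (adjusted p = 0.089). That of Gatc was lost without Ripk3-KO replicate 2 (adjusted p = 0.0502), and that of Rars2 in VilCre-Ripk3fl/fl without VilCre-Ripk3fl/fl replicate 3, WT replicate 2 or WT replicate 3 (adjusted p = 0.0685, 0.0667 and 0.0664).

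Lars2, the mitochondrial leucine enzyme, varied widely among the libraries of a group, and it was singled out after its values were seen. It had 399, 224 and 217 CPM in Ripk3-KO, 310, 277 and 253 CPM in VilCre-Ripk3fl/fl and 189, 248 and 201 CPM in WT. The first Ripk3-KO library was far above the other two of its group, and Lars2 made up 49.1% of the summed mitochondrial synthetase CPM in it. No comparison of Lars2 was called (log2 fold change 0.40 in Ripk3-KO, SE 0.27, adjusted p = 0.255). Without that library, the value in Ripk3-KO against WT was 0.05 (adjusted p = 0.796), and VilCre-Ripk3fl/fl was called higher than WT by 0.40 (adjusted p = 0.0403). The other 20 mitochondrial genes summed to 395 to 414 CPM in Ripk3-KO and 391 to 406 CPM in VilCre-Ripk3fl/fl, against 443 to 461 CPM in WT.

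For 16 amino acid pairings, each formed by a cytosolic gene and the mitochondrial gene for the same amino acid, the fold changes can be set side by side. The cytosolic gene had the lower log2 fold change in 15 of 16 pairings in Ripk3-KO against WT, with isoleucine as the exception, and in 12 of 16 in VilCre-Ripk3fl/fl. The widest gap was in the tryptophan pair. Wars2, the mitochondrial partner of Wars, had log2 fold changes of -0.12 in Ripk3-KO and 0.21 in the VilCre-Ripk3fl/fl group, neither called. In the cysteine pair, Cars fell by 0.58 and 0.35 where Cars2 rose by 0.40 and 0.56. These are counts over genes and were not tested.

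**Figure D3:**
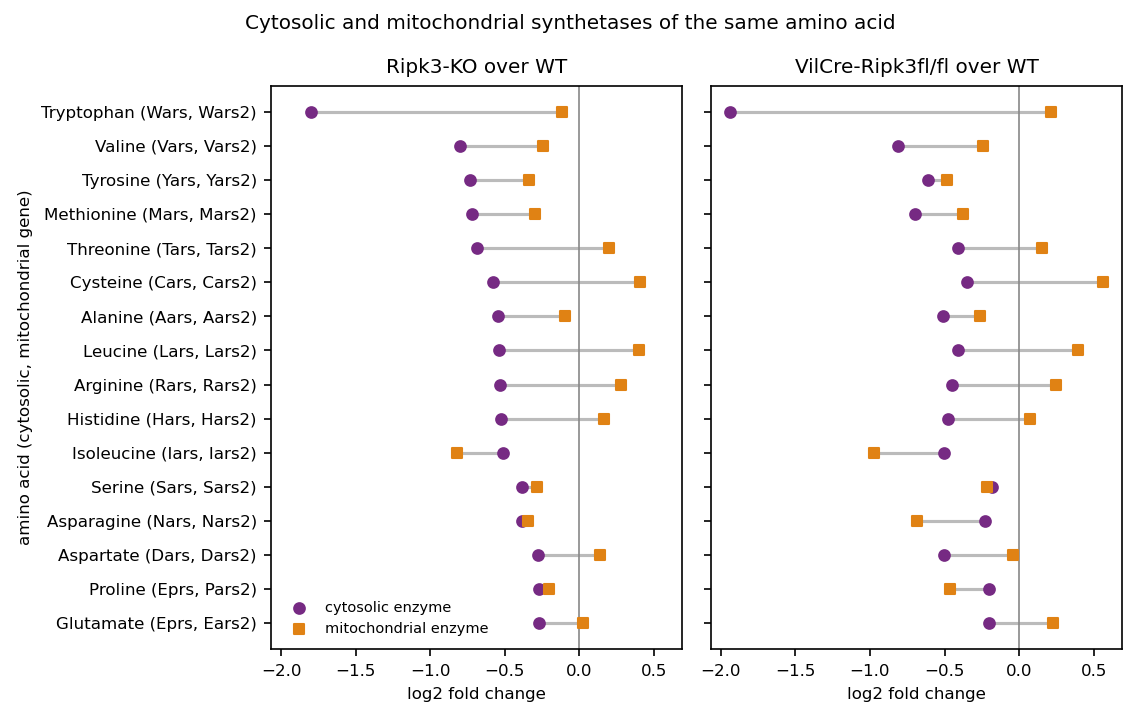
Log2 fold change over WT (horizontal axis) of the cytosolic enzyme (circles) and the mitochondrial enzyme (squares) for each of 16 amino acid pairings, in Ripk3-KO (left) and VilCre-Ripk3fl/fl (right); Eprs serves both glutamate and proline. Circles lie to the left of the squares in 15 pairings on the left and in 12 on the right.

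Modification enzymes fell more often than they rose. Of 55 genes, 24 fell and 6 rose in Ripk3-KO against WT, and 21 fell and 5 rose in VilCre-Ripk3fl/fl, with medians of -0.24 and -0.22. The lower genes made up 43.6% and 38.2%, beside 28.1% and 28.4% of all genes tested. Trmt6 (chr2:132804207-132816055, minus strand, mm10), the non-catalytic subunit of the methyltransferase that makes 1-methyladenosine in tRNA, had 22.1, 20.2 and 21.6 CPM in Ripk3-KO, 23.4, 21.6 and 22.4 CPM in VilCre-Ripk3fl/fl and 40.8, 42.1 and 42.8 CPM in WT. No library of either deletion came near the WT range: the level was 1.96 times lower in Ripk3-KO (log2 fold change -0.97, adjusted p = 1.79e-11) and 1.86 times lower in VilCre-Ripk3fl/fl (-0.90, adjusted p = 1.53e-10), with an SE of 0.07 each. Trmt61a, the catalytic partner of Trmt6, moved less. It averaged 13.4 ± 0.254 CPM in Ripk3-KO, 16.1 ± 1.31 CPM in VilCre-Ripk3fl/fl and 18.8 ± 1.35 CPM in WT. The log2 fold change was -0.49 in Ripk3-KO (SE 0.10, adjusted p = 0.00014). In VilCre-Ripk3fl/fl it was -0.23 (adjusted p = 0.049), a call lost under 13 of the 18 other settings tried, with adjusted p-values from 0.0285 to 0.179 over all of them.

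Nsun2, which methylates cytosines of tRNA, had 94.9, 91.3 and 90.8 CPM in Ripk3-KO, 100.4, 100.4 and 89.0 CPM in VilCre-Ripk3fl/fl and 151, 154 and 152 CPM in WT. No library of either deletion reached the WT range, and the log2 fold change was -0.72 in Ripk3-KO and -0.66 in the VilCre-Ripk3fl/fl group (SE 0.05 each, adjusted p = 9e-12 and 8.14e-11). Nsun2 shares 37994 bases with Srd5a1 on the opposite strand, a gene with 3307 counts over all libraries beside 32476 for Nsun2. Both subunits of the deaminase that makes inosine at the wobble position of tRNA fell. Adat2 fell to 2.71 ± 0.739 CPM in Ripk3-KO and 3.09 ± 0.647 CPM in VilCre-Ripk3fl/fl, against 5.71 ± 1.02 CPM in WT (log2 fold changes -1.07 and -0.88, adjusted p = 0.00019 and 0.00169). Adat3 fell to 8.93 ± 3.07 CPM in Ripk3-KO and 10.5 ± 0.933 CPM in VilCre-Ripk3fl/fl, against 18.1 ± 1.88 CPM in WT (-1.01 and -0.78, adjusted p = 0.000595 and 0.00443). Adat3 overlaps Scamp4 on the same strand over 12902 bases, so its reads cannot be fully assigned. Pusl1, a pseudouridine synthase family member, fell by 0.72 in Ripk3-KO and by 0.80 in VilCre-Ripk3fl/fl on the log2 scale.

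Among the modification genes that rose, Trmt1l had 53.5 ± 3.68 CPM in Ripk3-KO, 60.0 ± 3.02 CPM in VilCre-Ripk3fl/fl and 40.4 ± 2.35 CPM in WT. Trmt1l encodes a relative of the tRNA guanine methyltransferase Trmt1. Its log2 fold change was 0.41 in Ripk3-KO (SE 0.07, adjusted p = 1.28e-05) and 0.57 in VilCre-Ripk3fl/fl (SE 0.07, adjusted p = 9.46e-08). Hsd17b10, a mitochondrial dehydrogenase that is also a subunit of mitochondrial ribonuclease P, rose by 0.29 and 0.45. Trmt2b, a mitochondrial uridine methyltransferase, rose by 0.43 in Ripk3-KO and 0.25 in the VilCre-Ripk3fl/fl group. In TPM, Trmt2b averaged 16.7 in Ripk3-KO, 12.6 in VilCre-Ripk3fl/fl and 12.9 in WT. Osgep, an enzyme that makes threonylcarbamoyladenosine in tRNA, rose by 0.61 in VilCre-Ripk3fl/fl (adjusted p = 0.000306). It lies 4.86 Mb from Ripk3 on chromosome 14, and its VilCre-Ripk3fl/fl libraries were spread from 23.8 to 35.5 CPM, where the Ripk3-KO libraries stood at 22.5 to 23.4 CPM and the WT libraries at 16.9 to 22.1 CPM. Dus2, a dihydrouridine synthase, rose by 0.44 in Ripk3-KO (adjusted p = 0.0178), a call lost without Ripk3-KO replicate 1 or 2 or WT replicate 1 or 2 (adjusted p = 0.0707, 0.0632, 0.0709 and 0.0852).

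Processing and ligation factors had 8 of 22 genes lower in each deletion against WT, with 0 higher in Ripk3-KO and 2 higher in VilCre-Ripk3fl/fl. The share called lower was 36.4% in each, not far above the 28.1% and 28.4% of all genes tested, and in Ripk3-KO fewer were called in either direction than the 55.4% of all genes. Pop1, the largest protein of ribonuclease P, which trims the 5′ end of tRNA, had 4.20, 4.28 and 4.37 CPM in Ripk3-KO, 6.30, 7.25 and 5.63 CPM in VilCre-Ripk3fl/fl and 9.95, 11 and 12.8 CPM in WT. The groups did not overlap, and the log2 fold change was -1.39 in Ripk3-KO (SE 0.15, adjusted p = 1e-08) and -0.81 in VilCre-Ripk3fl/fl (SE 0.14, adjusted p = 3.65e-05). Rpp30 of the same enzyme fell by 0.68 and 0.54, and Rpp40 fell by 0.67 and 0.73. Thg1l, which adds guanosine to the 5′ end of histidine tRNA, averaged 11.2 ± 2.02 CPM in Ripk3-KO, 11.3 ± 0.869 CPM in VilCre-Ripk3fl/fl and 19.1 ± 0.728 CPM in WT (log2 fold changes -0.77 and -0.76). Elac2, the tRNase Z that trims the 3′ end, fell to 21.2 ± 1.33 CPM in Ripk3-KO and 20.2 ± 3.20 CPM in VilCre-Ripk3fl/fl, against 31.9 ± 1.92 CPM in WT (-0.59 and -0.66, adjusted p = 7.64e-06 and 2.32e-06). Rtcb, the tRNA ligase, moved little: 118 ± 4.66 CPM in Ripk3-KO, 132 ± 2.65 CPM in VilCre-Ripk3fl/fl and 140 ± 1.86 CPM in WT, with log2 fold changes of -0.24 (adjusted p = 0.000131) and -0.09 (adjusted p = 0.136).

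The editing and selenocysteine factors were few and mixed. Sepsecs, which makes selenocysteine on its tRNA, had 45.9, 45.0 and 50.2 CPM in Ripk3-KO, 32.9, 34.4 and 41.4 CPM in VilCre-Ripk3fl/fl and 40.8, 35.0 and 34.2 CPM in WT. The Ripk3-KO libraries were above all others. The log2 fold change over WT was 0.36 in Ripk3-KO (adjusted p = 0.000743) and -0.02 in VilCre-Ripk3fl/fl (adjusted p = 0.886). Pstk, the kinase that acts before Sepsecs, rose in VilCre-Ripk3fl/fl by 0.47 (adjusted p = 0.00217), and Dtd1, a deacylase that removes D-amino acids from tRNA, fell in Ripk3-KO by 0.49 (adjusted p = 0.007). Dtd2 and Aarsd1 were called lower in VilCre-Ripk3fl/fl at adjusted p-values of 0.0458 and 0.0447, calls lost under 13 and 9 of the 18 other settings.

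Fewer of the tRNA genes were called between the deletions. In Ripk3-KO against VilCre-Ripk3fl/fl, 21 of the 129 genes were lower, 9 were higher and 99 were not called, where 31.7% of all genes tested were called, 15.1% lower and 16.6% higher. Libraries did not overlap for 45 of the 129 genes, beside 40.8% of all genes. The median log2 fold change was -0.07, against 0.01 over all genes. The direction of the summed level depended on the measure. In CPM, the tRNA genes summed to 4109 to 4382 in Ripk3-KO and 4311 to 4530 in VilCre-Ripk3fl/fl, which overlap. In TPM, their sum was higher in Ripk3-KO (2927 to 2999) than in VilCre-Ripk3fl/fl (2701 to 2750). The count of 21 dropped to 12 without Ripk3-KO replicate 2 and to 13 without VilCre-Ripk3fl/fl replicate 2. The count of 9 dropped to 5 without Ripk3-KO replicate 3 and to 5 with the WT libraries left out of the fit.

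Ctu1 and Mettl1 were among the genes lower in Ripk3-KO than in VilCre-Ripk3fl/fl. Ctu1, which thiolates the wobble uridine, had 7.29, 5.99 and 9.07 CPM in Ripk3-KO, 11.7, 10.6 and 13.0 CPM in VilCre-Ripk3fl/fl and 11.4, 8.82 and 10.2 CPM in WT. The Ripk3-KO libraries lay below those of VilCre-Ripk3fl/fl (log2 fold change -0.66, SE 0.15, adjusted p = 0.000966), and overlapped those of WT. Against WT, Ctu1 was called in Ripk3-KO (-0.44, adjusted p = 0.0124), a call lost without Ripk3-KO replicate 2 or WT replicate 1 (adjusted p = 0.0975 and 0.0876), and not in VilCre-Ripk3fl/fl (0.22, adjusted p = 0.21). Mettl1, which makes 7-methylguanosine in tRNA, had 23.4, 21.8 and 22 CPM in Ripk3-KO, 34.7, 30.6 and 29.0 CPM in VilCre-Ripk3fl/fl and 29.8, 28.3 and 30.6 CPM in WT. Its Ripk3-KO libraries were below all others, with a log2 fold change of -0.49 from VilCre-Ripk3fl/fl (SE 0.08, adjusted p = 3.1e-05). Wdr4, the partner subunit of Mettl1, had a log2 fold change of 0.13 in that comparison and was not called (adjusted p = 0.245). It is named as the partner and not by size.

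**Figure D4:**
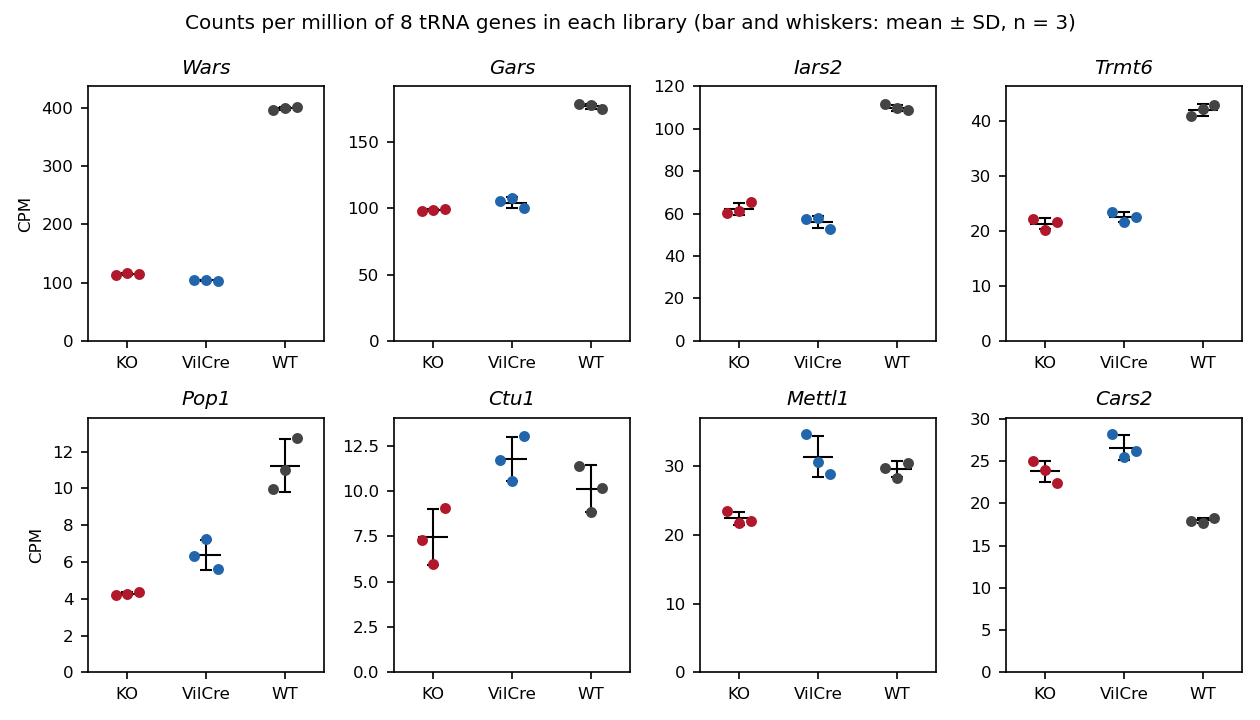
CPM (vertical axis, from 0) of 8 tRNA genes in each library of Ripk3-KO (KO), VilCre-Ripk3fl/fl (VilCre) and WT; points are libraries, and the bar with whiskers is the mean ± SD (n = 3). Wars, Gars, Iars2, Trmt6 and Pop1 are lower in both deletions than in WT, Cars2 is higher in both, and Ctu1 and Mettl1 are lower in Ripk3-KO than in VilCre-Ripk3fl/fl.

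Of the cytosolic synthetases, 7 were lower and 2 higher in Ripk3-KO than in VilCre-Ripk3fl/fl, or 33.3% and 9.52%, beside 15.1% and 16.6% of all genes tested. In TPM, by contrast, their sum was higher in Ripk3-KO (1116 to 1176) than in VilCre-Ripk3fl/fl (1058 to 1081). Farsb, a subunit of the phenylalanine enzyme, averaged 59.4 ± 2.02 CPM in Ripk3-KO and 73.7 ± 3.80 CPM in VilCre-Ripk3fl/fl (log2 fold change -0.31, SE 0.06, adjusted p = 0.000122). Tars averaged 101 ± 2.29 CPM and 123 ± 3.67 CPM in the same order (-0.28, SE 0.05, adjusted p = 5.55e-05), and Cars fell by 0.23 (adjusted p = 0.00908). In TPM, Farsb averaged 53.7 and 57.2, Tars 90.7 and 94.6, and Cars 18.3 and 18.4 in that order. Dars, the aspartate enzyme, was higher in Ripk3-KO, at 43.1 ± 0.502 CPM, than in VilCre-Ripk3fl/fl, at 37.0 ± 1.31 CPM (0.22, SE 0.06, adjusted p = 0.00895). Wars was also higher in Ripk3-KO, by 0.14 (adjusted p = 0.0173), a call lost with only the 2 groups compared (adjusted p = 0.055) and without Ripk3-KO replicate 2 (adjusted p = 0.0554). Pop1 fell by 0.58 (adjusted p = 0.00411), and Trub2, a mitochondrial pseudouridine synthase, was higher by 0.31 (adjusted p = 0.00229).

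F13a1 carries the tRNA term in the table but encodes the A chain of coagulation factor XIII, which macrophages make. It had 11.3, 11.9 and 12.1 CPM in Ripk3-KO, 1.61, 0.954 and 2.19 CPM in VilCre-Ripk3fl/fl and 4.93, 3.19 and 3.99 CPM in WT. The 3 groups did not overlap. It rose in Ripk3-KO against WT (log2 fold change 1.54, SE 0.19, adjusted p = 1.97e-07) and fell in VilCre-Ripk3fl/fl (-1.34, SE 0.23, adjusted p = 1.97e-05). The 6 macrophage markers summed to 411 to 443 CPM in Ripk3-KO, 250 to 269 CPM in VilCre-Ripk3fl/fl and 395 to 407 CPM in WT. Of these markers, 4 of 6 were called higher in Ripk3-KO than in VilCre-Ripk3fl/fl, beside 16.6% of all genes tested. Their part in the difference of F13a1 was not tested.

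Genes around the pathway were read from lists chosen for their function, and each count stands beside the shares of all genes tested, which were 28.1% lower and 27.3% higher in Ripk3-KO against WT and 28.4% lower and 27.2% higher in VilCre-Ripk3fl/fl. Of 77 tested genes with a tRNA role that lack the annotation, 40 were lower and 6 higher in Ripk3-KO against WT, and 33 were lower and 10 higher in VilCre-Ripk3fl/fl, or 51.9% and 42.9% lower. Of 29 translation initiation and elongation factors, 21 were lower and 1 higher in Ripk3-KO, and 20 were lower and 6 higher in VilCre-Ripk3fl/fl, or 72.4% and 69.0% lower. Eif2b3, a subunit of the exchange factor for eIF2, fell by 0.83 and 0.95. In the same list, Eif2s3x rose by 0.19 in Ripk3-KO and Eif2b4 by 0.33 in VilCre-Ripk3fl/fl. Of 24 genes of RNA polymerase III and tRNA export, 11 were lower and 3 higher in Ripk3-KO, and 9 were lower and 4 higher in VilCre-Ripk3fl/fl, or 45.8% and 37.5% lower. Xpo5, an RNA export receptor, fell by 0.82 in each, and Maf1, a repressor of RNA polymerase III, rose by 0.43 in VilCre-Ripk3fl/fl. Of 22 genes of Myc and growth signalling, 11 were lower and 3 higher in Ripk3-KO and 12 were lower and 4 higher in VilCre-Ripk3fl/fl, or 50% and 54.5% lower.

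Genes of the amino acid response were called in both directions. Of 27 genes of that response and of serine and glycine synthesis, 16 were lower and 4 higher in Ripk3-KO against WT, and 14 were lower and 7 higher in VilCre-Ripk3fl/fl. These are 59.3% and 51.9% lower, beside 28.1% and 28.4% of all genes. Psat1, an enzyme of serine synthesis, averaged 18.1 ± 0.401 CPM in Ripk3-KO, 12.9 ± 2.31 CPM in VilCre-Ripk3fl/fl and 56.6 ± 2.90 CPM in WT (log2 fold changes -1.65 and -2.13). Asns, asparagine synthetase and a target of ATF4 named for that role, averaged 36.6 ± 0.679, 49.6 ± 2.30 and 97.7 ± 4.26 CPM in the same order (-1.42 and -0.98). Ddit3, a transcription factor of the stress response, rose by 0.77 in Ripk3-KO and 1.20 in the VilCre-Ripk3fl/fl group. Its gene overlaps Mars, the cytosolic methionine enzyme, by 68 bases on the opposite strand, and Mars fell by 0.72 and 0.70. Atf4 RNA had a log2 fold change of 0.01 in Ripk3-KO (adjusted p = 0.851) and rose by 0.28 in VilCre-Ripk3fl/fl (adjusted p = 1.28e-05). ATF4 is controlled largely at translation, which was not measured.

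Amino acid transporters moved both ways. Of 22, 11 rose and 7 fell in Ripk3-KO against WT, and 12 rose and 9 fell in VilCre-Ripk3fl/fl. The shares that rose were 50% and 54.5%, beside 27.3% and 27.2% of all genes, and the shares that fell were 31.8% and 40.9%, beside 28.1% and 28.4%. Slc7a5, which imports leucine and other large neutral amino acids, fell to 7.36 ± 0.789 CPM in Ripk3-KO and 8.17 ± 0.40 CPM in VilCre-Ripk3fl/fl, against 27.1 ± 1.60 CPM in WT. Slc7a8, a related transporter of the basolateral membrane of the intestinal epithelium, rose to 248 ± 11.1 CPM and 160 ± 5.18 CPM in the same order of deletions, against 61.1 ± 0.473 CPM in WT. Of 24 interferon-gamma response genes, 19 were lower and 2 higher in Ripk3-KO, and 22 were lower and 2 higher in VilCre-Ripk3fl/fl, or 79.2% and 91.7% lower beside 28.1% and 28.4% of all genes. Cxcl10, a chemokine induced by interferon-gamma, fell to 13.7 ± 1.42 CPM in Ripk3-KO and 7.06 ± 0.183 CPM in VilCre-Ripk3fl/fl, against 83 ± 2.13 CPM in WT, and Ifng itself stood at 0.459 ± 0.13, 0.30 ± 0.083 and 3.36 ± 0.306 CPM in that order. Between the deletions, 15 of the 24 were higher and 1 lower in Ripk3-KO than in VilCre-Ripk3fl/fl, where 16.6% of all genes were higher and 15.1% lower. Whether the fall of Wars belongs with that of these genes was not tested.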

How the data were processed

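Total RNA was sequenced in 9 small intestine libraries, grouped by their titles. Per the submitters' processing notes, Trimmomatic, STAR, HTSeq and DESeq2 and the build mm10 were used; the sources used here give neither their roles nor their versions. The labels' protocols name ribosomal RNA removal and both a directional NEBNext kit and a TruSeq stranded kit. The Ripk3-KO libraries carry a run of sample numbers separate from that of the WT and VilCre-Ripk3fl/fl libraries. This numbering does not show whether the groups were prepared together. A difference in preparation between Ripk3-KO and the other groups could not be told apart from genotype. The authors deposited 1 table with whole-number counts and TPM per gene and library. The deposited counts were tested, and the authors' TPM values, which are per length, served to rank levels between genes. They also served to give some levels in a second measure. The table's 18 other per-sample columns were not used, nor was 1 line without an entry. The total count per library was at least 25375499, where 3 counts equal at most 0.118 CPM.

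Counts were fitted with edgeR 4.0.16 in R 4.3.3: genes were kept by filterByExpr by group (16539 genes), scaled by TMM, and given a robust quasi-likelihood fit with 1 mean per group over all libraries (6 residual degrees of freedom). Tests were 2-sided with Benjamini-Hochberg adjustment over all genes tested, and a gene with an adjusted p under 0.05 is called and said to have risen or fallen. SE values come from the quasi-likelihood F statistic, CPM values use TMM-scaled library sizes, and errors are SD over 3 libraries. The main fit, but none of its alternatives, was tested on simulated data.

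The genes, roles, related lists, markers and motifs were chosen with earlier results of these data known. Named genes are, in each comparison and role, up to 3 higher and 3 lower with the largest fold change among those called, with mean CPM of at least 1 and groups not overlapping, together with Wars, Eprs, Nsun2, Trmt61a, Elac2, Rtcb and Ctu1 and up to 2 higher and 2 lower of each related list. Not every gene that meets this rule is described, so the genes shown from a list are not always its largest changes. Genes outside this rule are named where their role, promoter or spread is described and were chosen after their values were seen. Alternatives were RLE and upper-quartile scaling, TMM without pancreas and adipocyte markers, 2 other filters, DESeq2 1.42.0, limma-voom (limma 3.58.1), only the 2 groups compared, a replicate block and each library left out. The count of cytosolic synthetases under these settings was added after seeing the data.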

Additional observations from a re-analysis of the deposited data

Results flagged for a closer look

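F13a1, the coagulation factor gene that carries the tRNA term, was higher in Ripk3-KO and lower in VilCre-Ripk3fl/fl than in WT, so that the deletions moved in opposite directions from the same WT libraries. The test of the difference between them gave a log2 fold change of 2.88 in Ripk3-KO over VilCre-Ripk3fl/fl (SE 0.21, edgeR adjusted p = 7.65e-11), with 3 of 3 Ripk3-KO libraries above all VilCre-Ripk3fl/fl libraries.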

How the results depend on the processing

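The counts of lower cytosolic synthetases held at 20 in Ripk3-KO against WT under all 18 other settings and at 17 to 18 in VilCre-Ripk3fl/fl. Under upper-quartile scaling, the median log2 fold change of the tRNA genes against WT moved to -0.19 in Ripk3-KO and to -0.19 in VilCre-Ripk3fl/fl, where the median of all genes was 0.07 and 0.06. The call counts against WT stayed within 1.5 times. In Ripk3-KO against VilCre-Ripk3fl/fl, 5 genes were higher with only the 2 groups compared. Leaving out 1 library at a time gave 12 to 24 lower and 5 to 8 higher genes in that comparison, 54 to 65 lower and 11 to 14 higher in Ripk3-KO against WT, and 51 to 60 lower and 9 to 17 higher in VilCre-Ripk3fl/fl against WT, where the median ranged from -0.23 to -0.20. Where a group was left with 2 libraries, the spread came from all groups.

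Whether equal replicate numbers mark pairs was checked: the deviations of same-numbered libraries from their group means correlated between -0.0404 and 0.0905, so the numbers were not taken as pairs. With the replicate number as a block, 63 of the genes were lower and 13 higher in Ripk3-KO against WT (median -0.25), 57 and 15 in VilCre-Ripk3fl/fl against WT (median -0.23), and 20 and 9 between the deletions (median -0.07).

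Of 85 results for named genes, 63 kept their call under every setting and 22 did not. Among them, 0 changed direction where the main fit or the other setting called the gene. Changes of sign between uncalled values were not counted. The calls of Iars2, Nars2, Wars2, Osgepl1, Trmt44, Trmt61a, Pop7, Rpp21, Rtcb and Grsf1 between the deletions were among the 22. Genes near 1 CPM have few counts, so their fold changes are the least certain. Overlapping genes are uncertain because the use of strand in counting is not given. Besides those marked above, they include Gatb, Pstk and Farsb.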
